A study of Homo sapiens with 9 samples.

Results

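The nuclear-encoded subunits of the respiratory chain and the ATP synthase were examined in MDA-MB-231 cells, a triple-negative human breast cancer line, after incubation with small extracellular vesicles (sEV). Members were the protein-coding genes whose symbols start with NDUFA (without the NDUFAF assembly factors), NDUFB, NDUFC, NDUFS, NDUFV, UQCR, COX4, COX5, COX6, COX7, COX8, ATP5F, ATP5M or ATP5P, together with CYC1 and the genes SDHA, SDHB, SDHC and SDHD. This rule took 90 of the 60719 genes in the table: 40 of complex I, 4 of complex II, 10 of complex III, 17 of complex IV and 19 of the ATP synthase. The rule used no measured value. It also takes 2 readthrough genes (NDUFC2-KCTD14 and ATP5MF-PTCD1), which run from a subunit gene into its neighbour, and NDUFA4, which is now regarded as part of complex IV and is counted here with complex I by its symbol. A further 180 rows with matching symbols are pseudogenes or noncoding genes and are not members. RNA was sequenced from 9 samples of recipient cells, 3 in each of 3 groups, all kept for 72 h in vesicle-depleted medium (labelled 5%). The TIS sEV group was given vesicles from MDA-MB-231 donors treated with nocodazole, a drug that blocks microtubule assembly, at 100 ng/ml for 72 h and then left for 72 h in vesicle-free medium. In the series text TIS stands for therapy-induced senescence. The Cont sEV group was given vesicles from donors treated with the solvent DMSO, with the same 72 h of treatment and 72 h in vesicle-free medium. The No sEV group was given none. The labels imply, but do not state sample by sample, which donors the vesicles of each group came from. Donors and recipients are the same line, labelled wild type, so nothing in the labels separates transcripts carried by the vesicles from those made by the recipient.

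The respiratory chain passes electrons from NADH through complex I, or from succinate through complex II, to ubiquinone, then through complex III and cytochrome c to complex IV, which reduces oxygen. Complexes I, III and IV pump protons across the inner mitochondrial membrane, and the ATP synthase uses the return flow to make ATP. Most subunits are encoded in the nucleus, but a small core set is encoded by mitochondrial DNA, so every complex except complex II needs products of both genomes. Nuclear respiratory factor 1 (NRF1), the ETS-family factor GABP and YY1 are known to bind the promoters of many subunit genes.

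Promoter sequence was taken from RefSeq (GRCh38.p14), where 70 of the 90 genes had an entry, and the 250 bases before the annotated start were searched on both strands. Of the 66 promoters whose gene passed the expression filter described below, 12 (18.2%) held the NRF1 core GCATGCG, against 5.86% of the promoters of 10298 tested genes and 3.57% of all 27305 promoters in the table. The ETS core CCGGAAG was found in 17 (25.8%), against 16.6% and 8.82%, and both cores stood together in 5 (7.58%), against 1.2% and 0.582%. The YY1 core GATGGCG was found in 2 (3.03%), against 3.49% and 2.38%. In G and C the subunit promoters had a median of 61.2%, against 65.2% for tested genes and 58% for all promoters, and they held a median of 19.5 CpG dinucleotides, against 21 and 11. By complex, an NRF1 core was present in 4 of 33 complex I promoters, 2 of 3 of complex II, 0 of 7 of complex III, 2 of 10 of complex IV and 4 of 13 of the ATP synthase. A match describes letters in the window and does not show that a factor binds there. The promoters below belong to the 3 genes of smallest p between TIS sEV and Cont sEV (NDUFS7, NDUFS6 and ATP5MK), the most abundant member (COX6A1) and its muscle isoform (COX6A2). They lie at chr19:1383657-1383906 (plus strand), chr5:1801157-1801406 (plus), chr10:103396476-103396725 (minus), chr12:120437863-120438112 (plus) and chr16:31428361-31428610 (minus), in that order. They are printed 5′ to 3′ with the motif letters in capitals.
NDUFS7: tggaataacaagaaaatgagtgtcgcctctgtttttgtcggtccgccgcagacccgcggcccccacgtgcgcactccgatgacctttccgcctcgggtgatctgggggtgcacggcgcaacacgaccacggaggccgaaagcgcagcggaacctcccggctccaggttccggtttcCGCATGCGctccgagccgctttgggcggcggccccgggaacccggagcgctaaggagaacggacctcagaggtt
NDUFS6: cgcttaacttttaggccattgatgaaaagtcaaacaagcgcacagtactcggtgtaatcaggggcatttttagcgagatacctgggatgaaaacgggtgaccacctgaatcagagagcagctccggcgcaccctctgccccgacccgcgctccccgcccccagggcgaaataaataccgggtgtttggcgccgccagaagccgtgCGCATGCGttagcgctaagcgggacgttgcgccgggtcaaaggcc
ATP5MK: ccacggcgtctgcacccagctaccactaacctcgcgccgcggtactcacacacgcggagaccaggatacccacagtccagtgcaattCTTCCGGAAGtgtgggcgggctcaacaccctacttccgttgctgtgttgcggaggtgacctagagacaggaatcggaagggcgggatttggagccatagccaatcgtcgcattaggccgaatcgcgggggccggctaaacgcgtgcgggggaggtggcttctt
COX6A1: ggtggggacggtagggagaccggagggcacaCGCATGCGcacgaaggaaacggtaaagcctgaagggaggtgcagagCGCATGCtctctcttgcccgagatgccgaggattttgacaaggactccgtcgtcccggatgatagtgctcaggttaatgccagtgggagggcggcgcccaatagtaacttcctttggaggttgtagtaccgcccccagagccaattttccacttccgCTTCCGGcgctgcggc
COX6A2: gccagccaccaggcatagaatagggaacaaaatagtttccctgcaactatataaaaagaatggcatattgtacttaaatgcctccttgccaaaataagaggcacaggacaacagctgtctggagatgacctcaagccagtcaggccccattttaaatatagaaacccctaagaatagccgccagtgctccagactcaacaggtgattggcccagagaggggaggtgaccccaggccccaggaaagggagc
In NDUFS7 and NDUFS6 the capitals are a palindromic pair of overlapping NRF1 cores on opposite strands. In ATP5MK they are an overlapping pair of ETS cores. COX6A1 holds 3 NRF1 matches, of which 2 overlap, and an ETS core 16 bases before the start. COX6A2 holds none of the 3 motifs in this window, and has 1 CpG dinucleotide where COX6A1 has 19.

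Levels are TPM (transcript abundance relative to the library's total), the salmon estimates the authors deposited, which are scaled for transcript length. Each library sums to the same total, so its read depth is unknown and every value is a share of the library. Of the 60719 genes, 13879 reached at least 1 TPM in at least 3 libraries and were tested, among them 82 of the 90 subunit genes. Of the markers of the line, VIM lay between 2206 and 2299 TPM, CD44 between 428 and 514 and EGFR between 103 and 125, while ESR1, PGR and CDH1 stayed under 0.58 TPM. ERBB2 (26.2 to 30.7 TPM) and EPCAM (21.1 to 25.9 TPM) were low but not near 0.

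The subunit genes were abundantly expressed. The 82 tested members had a median level of 187 TPM over the 9 libraries, against 17.3 TPM for all tested genes, and 64 of them averaged at least 100 TPM. Together the 90 genes made up 1.93% to 1.99% of all TPM in every library. Their transcripts were shorter than usual, with a median annotated length of 635 bases against 963 for tested genes.

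Median levels differed by complex: 129 TPM for complex I, 130 TPM for complex II, 171 TPM for complex III, 477 TPM for complex IV and 313 TPM for the ATP synthase. Levels also differed several-fold among proteins that are needed in equal number. In complex I the 7 nuclear core subunits, which carry the flavin and the iron-sulfur clusters, ranged from 60.99 to 300.3 TPM, a ratio of 4.92. NDUFA1, a small membrane subunit, was the most abundant complex I gene at 636 TPM, and the readthrough gene NDUFC2-KCTD14 the least at 12.7 TPM. Succinate dehydrogenase was the most even complex. Its iron-sulfur subunit SDHB averaged 196 TPM and its membrane anchor SDHD 156 TPM. The other anchor, SDHC, averaged 104 TPM, and the flavoprotein SDHA 102 TPM.

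In complex III the hinge protein gene UQCRH led with 670 TPM, and UQCRHL, an intronless copy of it, had 6.84 TPM. All 11 tested complex IV genes exceeded 100 TPM, from COX7A2L, a gene linked to supercomplex formation, at 139 TPM to COX6A1 at 1021 TPM. In the ATP synthase the catalytic beta subunit gene ATP5F1B averaged 587 TPM and the alpha subunit gene ATP5F1A 324 TPM, although alpha and beta alternate in the same ring. The 5 genes of the F1 head spanned 83.4 to 587 TPM, whereas the 4 peripheral stalk genes lay within 259 to 350 TPM. ATP5MF, which encodes a membrane subunit, was highest at 613 TPM, and the readthrough gene ATP5MF-PTCD1 was lowest at 6.79 TPM.

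**Figure D1:**
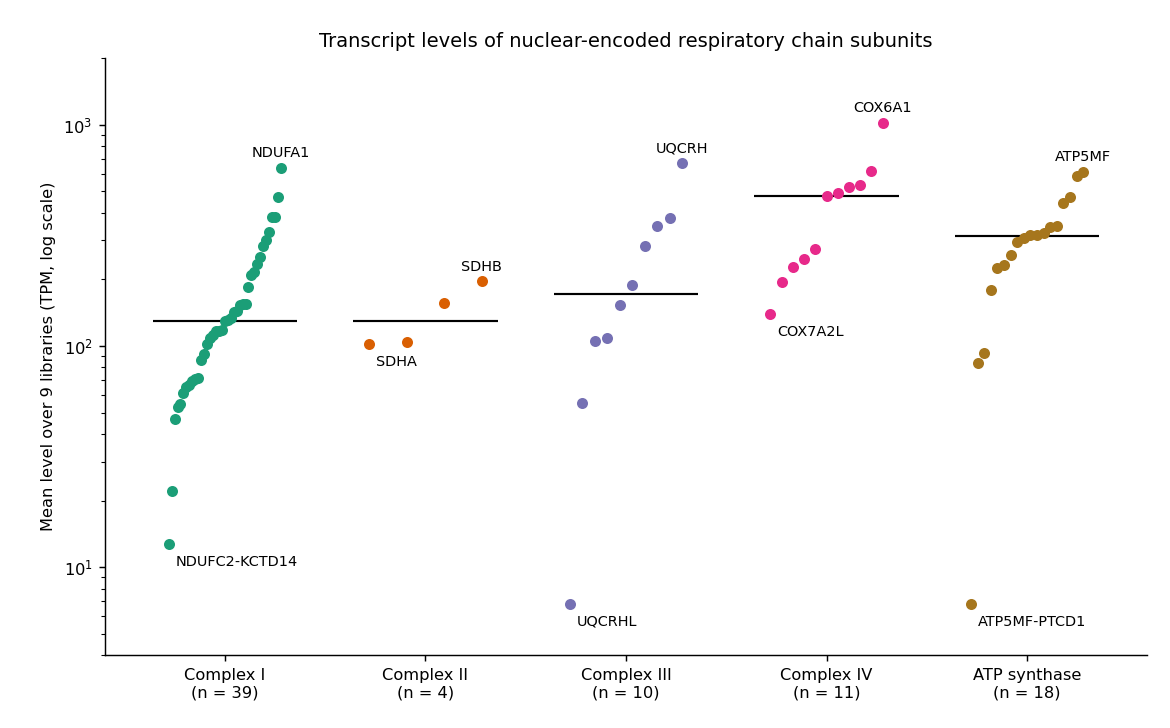
Mean level of each of the 82 tested subunit genes over 9 libraries (TPM, log axis), by complex. Each point is 1 gene, the horizontal line is the median of the complex, and the highest and lowest genes are named; complex IV has the highest median (477 TPM) and 3 low points are the readthrough genes and UQCRHL.

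The 8 members that failed the filter were nearly all tissue-specific isoforms or copies. COX6A2 and COX7A1, the heart and skeletal muscle forms, and COX4I2, the lung form, were listed at 0 in all 9 libraries, while COX6A1 averaged 1021 TPM, COX7A2 275 TPM and COX4I1 522 TPM. The testis isoforms COX6B2, COX7B2 and COX8C reached at most 0.55, 0.60 and 0.25 TPM in any library, against means of 532 TPM for COX6B1 and 492 TPM for COX8A. COX7B2 was listed at 0 in all 3 TIS sEV and all 3 Cont sEV libraries and at 0.60, 0.11 and 0.19 TPM in the No sEV libraries, levels too low to be tested. NDUFA4L2, a hypoxia-induced relative of NDUFA4, reached at most 0.088 TPM, against a mean of 54.7 TPM for NDUFA4. ATP5MGL, a copy of ATP5MG, reached at most 0.071 TPM. By contrast, the 3 genes for the same c subunit of the ATP synthase rotor were expressed together: ATP5MC2 averaged 344 TPM, ATP5MC3 233 TPM and ATP5MC1 225 TPM. These 3 genes differ in their import signals and give the same mature protein.

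Levels varied little among libraries. The highest of the 9 libraries exceeded the lowest by a median ratio of 1.13 per gene, and ratios ran from 1.04 to 2.78. The largest ratio belonged to NDUFC2-KCTD14, 87.7% of whose 31-base words also occur in other genes at 1 TPM or more, so most of its sequence does not separate it from them. In all, 31 of the 82 genes shared at least 10% of such words. Within groups the SD of log2 levels had a median of 0.053 for the subunit genes and 0.057 for the 6470 genes averaging 20 TPM or more.

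The comparison of TIS sEV with Cont sEV asks whether vesicles from nocodazole-treated donors act differently from those of DMSO-treated donors. In limma's moderated test on log2(TPM + 1) with Benjamini-Hochberg adjustment over all 13879 genes, 0 of 82 passed 0.05, where 13 genes (0.0937%) passed in all, and the smallest adjusted p among members was 0.173. At an unadjusted p below 0.05 there were 9 members (11.0%), against 10.0% of all tested genes. Of these, 4 were higher and 5 lower with TIS sEV, or 4.88% and 6.1% of members, against 7.07% and 2.93% of all tested genes. Groups did not overlap for 10 members (12.2%), against 15.4% of all tested genes. They were 6 higher and 4 lower with TIS sEV, against 10.9% and 4.47% of all tested genes. The median log2 fold change was 0.02 for members and 0.02 for all tested genes. In bulk RNA, a change in the number of cells expressing a gene cannot be told apart from a change in RNA per cell, and all levels here are relative to the rest of the library.

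NDUFS7, a core subunit of complex I that carries the iron-sulfur cluster nearest to ubiquinone, had the smallest p. It was at 89.9, 90.1 and 93.1 TPM with TIS sEV, at 79.6, 84.1 and 78.5 TPM with Cont sEV and at 91.3, 87.5 and 86.6 TPM with No sEV. The Cont sEV libraries lay below both other groups, which overlapped. The means were 91.0 ± 1.82 TPM with TIS sEV and 80.7 ± 2.98 TPM with Cont sEV (SD, n = 3 each), a log2 fold change of 0.17 (SE 0.04, limma with Benjamini-Hochberg adjustment, adjusted p = 0.173). Of the words of its transcripts, 38.2% also occur in other genes at 1 TPM or more, mostly in a gene listed at a mean of 1.84 TPM.

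NDUFS6, a zinc-binding accessory subunit added late in complex I assembly, had the same order of groups. It was at 157, 161 and 171 TPM with TIS sEV, at 149, 145 and 138 TPM with Cont sEV and at 151, 164 and 154 TPM with No sEV. Its TIS sEV libraries lay above all Cont sEV libraries and overlapped those with No sEV. The means were 163 ± 7.29 TPM with TIS sEV and 144 ± 5.92 TPM with Cont sEV (SD, n = 3 each), a log2 fold change of 0.18 (SE 0.05, limma with Benjamini-Hochberg adjustment, adjusted p = 0.229). None of its words occur in another gene at 1 TPM or more.

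ATP5MK, a small membrane subunit known for stabilising ATP synthase dimers, went the other way. It was at 438, 450.3 and 416 TPM with TIS sEV, at 466, 494 and 505 TPM with Cont sEV and at 477, 498 and 488 TPM with No sEV. The TIS sEV libraries lay below all other 6. The means were 435 ± 17.2 TPM with TIS sEV and 488 ± 20.2 TPM with Cont sEV (SD, n = 3 each), a log2 fold change of -0.17 (SE 0.04, limma with Benjamini-Hochberg adjustment, adjusted p = 0.210). Against the No sEV mean of 488 ± 10.3 TPM the log2 fold change was -0.17 as well (limma with Benjamini-Hochberg adjustment, adjusted p = 0.319).

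NDUFA2 and NDUFA10, both accessory subunits of complex I, completed the 5 members of smallest p. NDUFA2 was at 118.5, 107 and 108 TPM with TIS sEV and at 119.7, 122 and 123 TPM with Cont sEV, a log2 fold change of -0.12 (limma with Benjamini-Hochberg adjustment, adjusted p = 0.369). NDUFA10 was at 54.3, 56.3 and 55.3 TPM with TIS sEV and at 51.4, 52.8 and 51.4 TPM with Cont sEV, a log2 fold change of 0.09 (limma with Benjamini-Hochberg adjustment, adjusted p = 0.395). Neither pair of groups overlapped. COX6A1, the most abundant member, was at 1035, 949 and 993 TPM with TIS sEV and at 1025, 1055 and 1069 TPM with Cont sEV, which overlapped (log2 fold change -0.08, limma with Benjamini-Hochberg adjustment, adjusted p = 0.489).

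**Figure D2:**
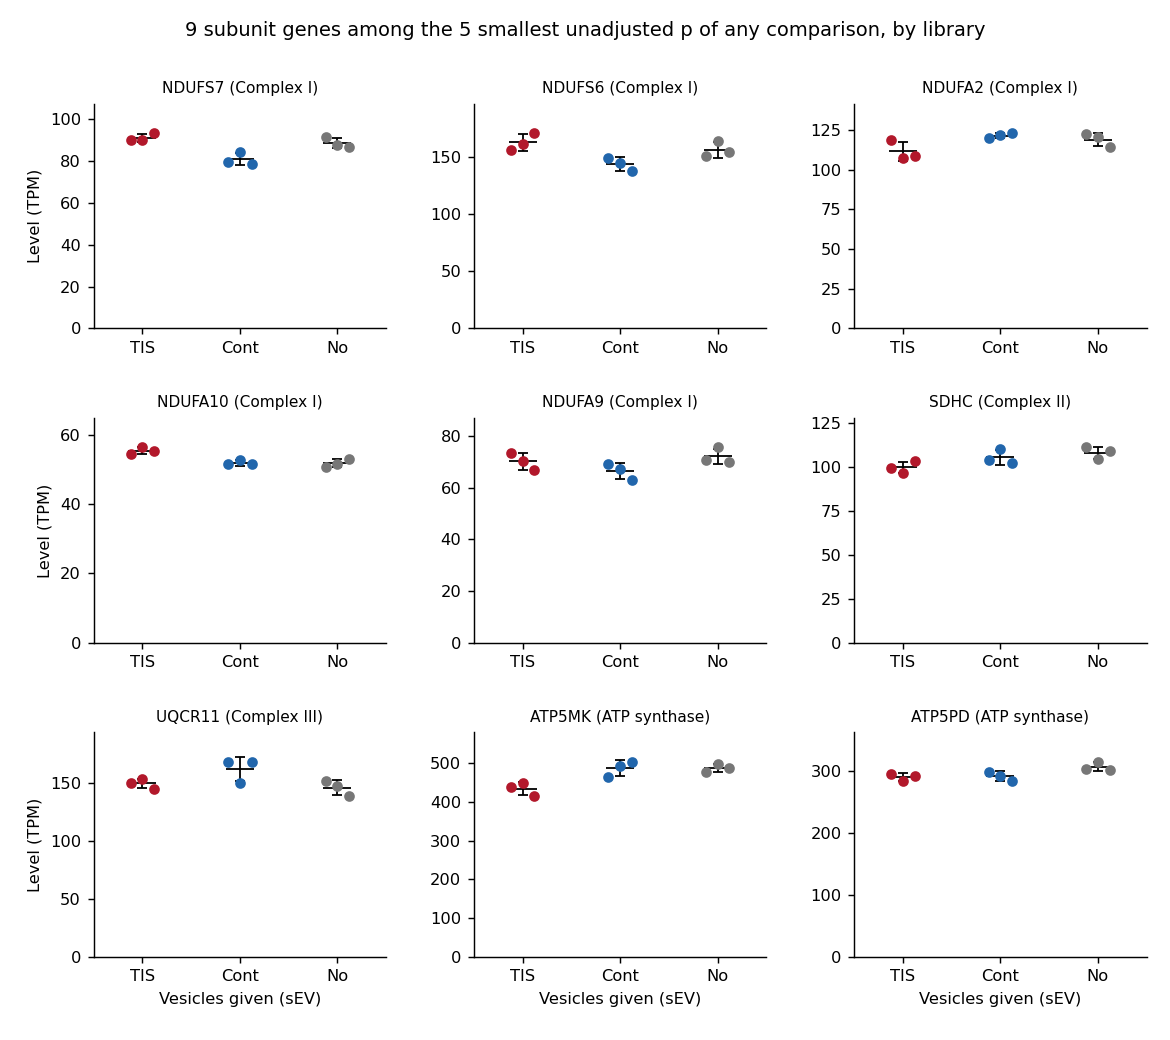
Level (TPM) in each library of 9 subunit genes that rank among the 5 smallest unadjusted p of any comparison; points are libraries, bars the mean and SD of 3 libraries, and groups run TIS sEV, Cont sEV, No sEV. The groups differ by small fractions of the level, as for ATP5MK, whose TIS sEV libraries lie between 416 and 450.3 TPM.

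The intervals show how large a difference the spread among these libraries allows, gene by gene. They are not adjusted for the number of genes. They rest on 3 libraries a group, whose spread may be technical, so they may be too narrow for a difference between separate cultures. For 76 of 82 genes the whole 95% confidence interval of the fold change between TIS sEV and Cont sEV lay within 1.2-fold in either direction, and the median half-width was 0.09 on the log2 scale. The 6 genes whose intervals reached further were NDUFC2-KCTD14, UQCRHL, ATP5MF-PTCD1, NDUFA4, NDUFA7 and NDUFS6. The interval of NDUFS6 did so through its estimate of 0.18 on the log2 scale, with an SE of 0.05. The widest interval was that of NDUFC2-KCTD14, which reached 2.21-fold. Subunits of 1 complex did not share a direction: in complex I 22 genes had the higher mean with TIS sEV and 17 with Cont sEV. In complex III the split was 7 and 3, in complex IV 6 and 5, in the ATP synthase 11 and 7, and in complex II 3 and 1. Over all members it was 49 and 33, but 39 and 43 after median-of-ratios rescaling and 40 and 42 after quantile normalization, so the direction of the list depends on the scaling. It was 44 and 38 with mitochondrially encoded genes left out and 45 and 37 with GC and length trends removed. Leaving out 1 library, 48 to 53 members had the higher mean with TIS sEV.

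The genes listed next, among them subunits at catalytic centres and main isoforms, had intervals that included 0. Those of the main isoform COX6A1 (-0.16 to -0.001) and of the core subunit NDUFS7 (0.09 to 0.25) did not. ATP5F1B was at 588, 586 and 595 TPM with TIS sEV and at 579.9, 581 and 601 TPM with Cont sEV, and ATP5F1A at 336, 316 and 329 TPM with TIS sEV and at 327, 316 and 323 TPM with Cont sEV. Both pairs of groups overlapped. The 95% confidence interval of the log2 fold change ran from -0.05 to 0.06 for ATP5F1B and from -0.04 to 0.08 for ATP5F1A. COX4I1, which binds ATP as a sensor of energy state in complex IV, was at 528 ± 10.9 TPM with TIS sEV and 509.6 ± 7.72 TPM with Cont sEV (SD, n = 3 each), with an interval from -0.01 to 0.11. For COX7A2 it ran from -0.15 to 0.05, for COX8A from -0.05 to 0.11, and for COX6B1, which faces the intermembrane space, from -0.12 to 0.03. Among the SDH genes, SDHA had the interval from -0.03 to 0.15 and SDHC that from -0.17 to 0.01. By complex, log2 fold changes reached from -0.13 to 0.42 in complex I, from -0.08 to 0.06 in complex II, from -0.11 to 0.17 in complex III, from -0.08 to 0.08 in complex IV and from -0.17 to 0.10 in the ATP synthase.

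**Figure D3:**
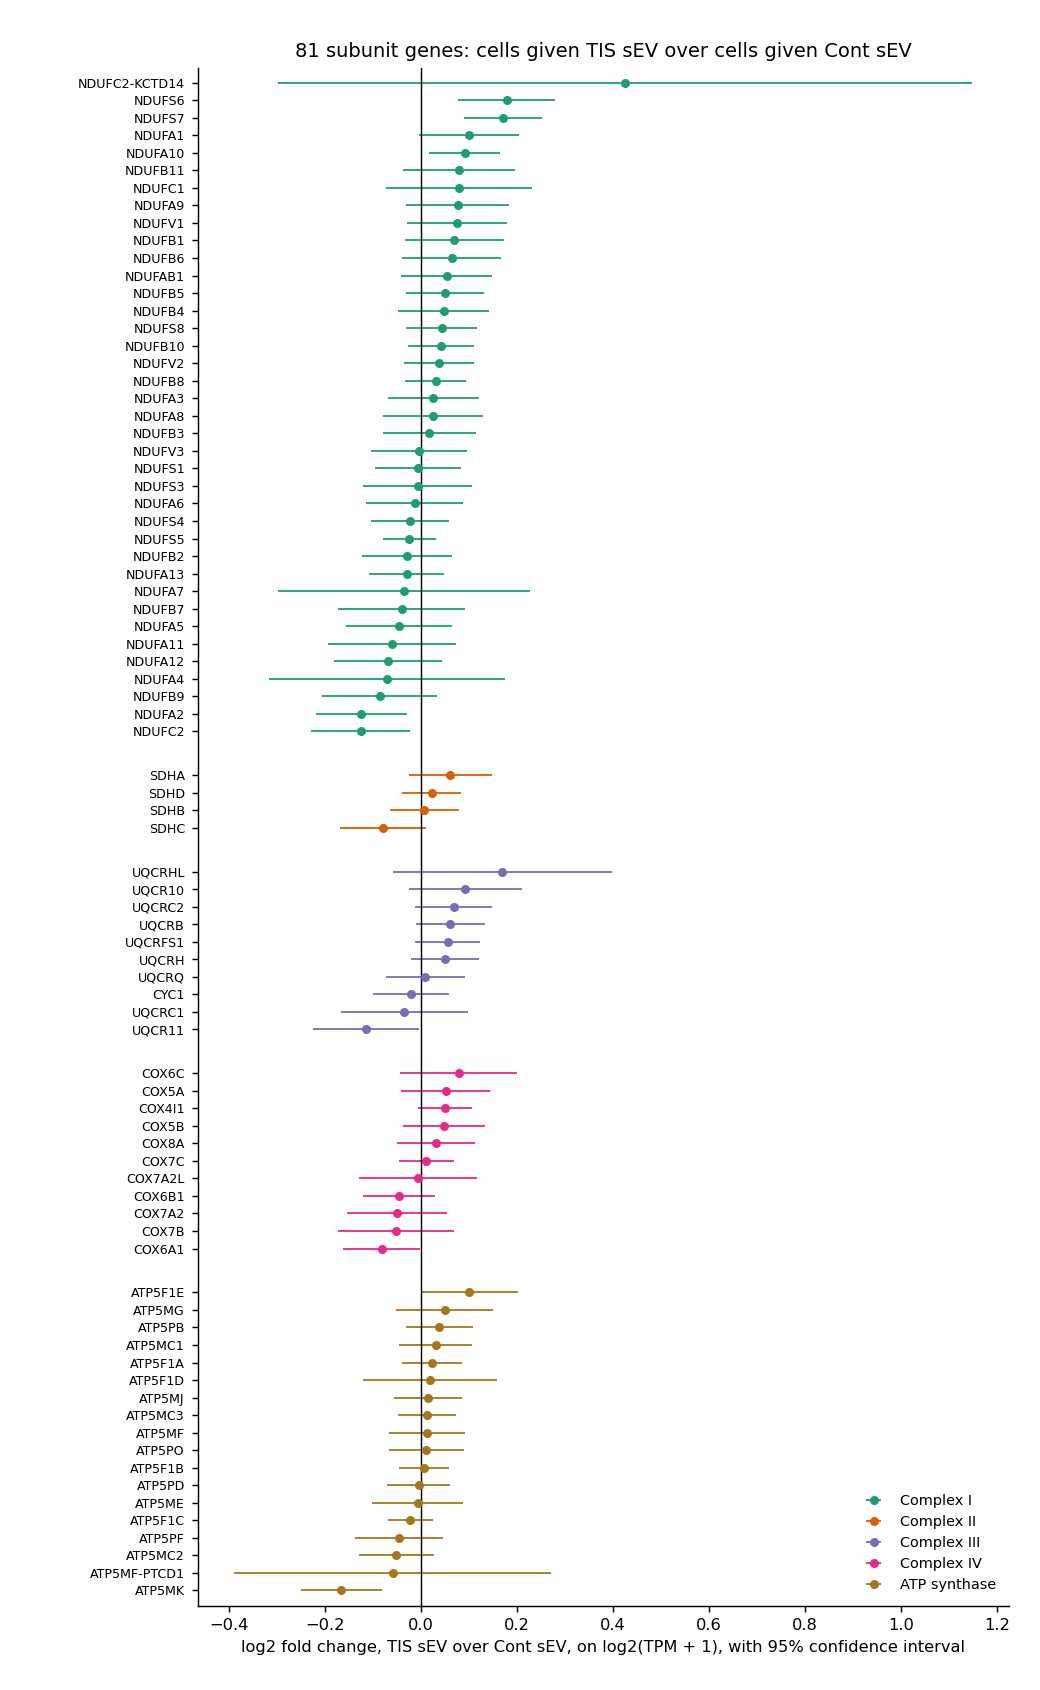
Log2 fold change of TIS sEV over Cont sEV with its 95% confidence interval for 81 of the 82 tested subunit genes, on the log2(TPM + 1) scale, sorted within each complex. No gene passed the adjusted test, and the widest interval is that of the readthrough gene NDUFC2-KCTD14.

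TIS sEV was next set against No sEV, which adds any effect of vesicles as such. Again 0 of 82 subunit genes passed limma's test with Benjamini-Hochberg adjustment, where 1 of 13879 genes (0.00721%) passed in all. At an unadjusted p below 0.05 there were 9 members (11.0%), against 7.97% of all tested genes. They were 4 higher and 5 lower with TIS sEV, or 4.88% and 6.1% of members, against 6.33% and 1.64% of all tested genes. Groups did not overlap for 12 members (14.6%), 6 higher and 6 lower with TIS sEV, against 14.1% of all tested genes (11.3% higher and 2.77% lower). Intervals lay within 1.2-fold for 77 genes.

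After ATP5MK, described above, the member of smallest p was SDHC, which anchors succinate dehydrogenase in the membrane. It was at 99.3, 96.7 and 103 TPM with TIS sEV and at 111, 104 and 109 TPM with No sEV, with groups that did not overlap. Its means were 99.8 ± 3.33 TPM with TIS sEV and 108 ± 3.48 TPM with No sEV (SD, n = 3 each), a log2 fold change of -0.12 (limma with Benjamini-Hochberg adjustment, adjusted p = 0.556). The other 3 SDH genes had log2 fold changes nearer 0: 0.05 for SDHA, -0.004 for SDHB and -0.003 for SDHD.

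NDUFA10 was at 54.3, 56.3 and 55.3 TPM with TIS sEV and at 50.8, 51.5 and 52.9 TPM with No sEV. These groups did not overlap (log2 fold change 0.09, limma with Benjamini-Hochberg adjustment, adjusted p = 0.558). ATP5PD, a peripheral stalk subunit, was at 296, 284 and 292 TPM with TIS sEV and at 303, 315 and 302 TPM with No sEV (log2 fold change -0.08, limma with Benjamini-Hochberg adjustment, adjusted p = 0.585).

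The median log2 fold change between TIS sEV and No sEV was -0.002 for the members and 0.03 for all tested genes. The members split into 39 with the higher mean with TIS sEV and 43 with the higher mean with No sEV. That split was 21 and 61 after median-of-ratios rescaling, 27 and 55 after quantile normalization and 17 and 65 with GC and length trends removed. Relative to the median of all tested genes, the members' median was -0.03 as deposited, -0.04 after median-of-ratios rescaling and -0.01 after quantile normalization, on the log2 scale.

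Cont sEV against No sEV shows cells given vesicles from DMSO-treated donors beside cells given none. No subunit gene passed (0 of 82, limma with Benjamini-Hochberg adjustment), and 0 of 13879 genes (0.0%) passed in all. At an unadjusted p below 0.05 there were 7 members (8.54%), 1 higher and 6 lower with Cont sEV, against 6.03% of all tested genes. The lower ones were 7.32% of members, against 2.5% of all tested genes, and the higher one 1.22%, against 3.53%. Groups did not overlap for 11 members (13.4%), against 11.2% of all tested genes. Cont sEV was the higher group in 1 of these and the lower in 10, against 6.72% and 4.47% of all tested genes. Intervals lay within 1.2-fold for 78 genes, and the widest, of NDUFC2-KCTD14, reached 1.90-fold.

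NDUFS7 and NDUFS6 were again among the 5 members of smallest p, in a comparison that shares its Cont sEV libraries with that of TIS sEV. The log2 fold change of NDUFS7 was -0.13 (limma with Benjamini-Hochberg adjustment, adjusted p = 0.789), and that of NDUFS6 was -0.12 (limma with Benjamini-Hochberg adjustment, adjusted p = 0.804). UQCR11, a small subunit of complex III, was at 168, 150.1 and 168 TPM with Cont sEV and at 152, 147 and 139 TPM with No sEV. Those groups overlapped, at means of 162 ± 10.4 TPM with Cont sEV and 146 ± 6.40 TPM with No sEV (SD, n = 3 each; log2 fold change 0.15, limma with Benjamini-Hochberg adjustment, adjusted p = 0.789). ATP5PD was at 299, 292 and 283 TPM with Cont sEV, below all 3 No sEV libraries (log2 fold change -0.07, limma with Benjamini-Hochberg adjustment, adjusted p = 0.807). NDUFA9, an accessory subunit beside the core, was at 69.3, 67.3 and 63.2 TPM with Cont sEV and at 71.0, 75.7 and 70.2 TPM with No sEV, without overlap (log2 fold change -0.12, limma with Benjamini-Hochberg adjustment, adjusted p = 0.807).

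The members' median log2 fold change between Cont sEV and No sEV was -0.01, against 0.01 for all tested genes, and 34 members had the higher mean with Cont sEV and 48 with No sEV. The split was 24 and 58 after median-of-ratios rescaling and 14 and 68 once GC and length trends were taken out. It stayed near the deposited split after quantile normalization (35 and 47) and without mitochondrially encoded genes (36 and 46). The members' median minus that of all tested genes was -0.024 as deposited and -0.009 after quantile normalization, on the log2 scale. For median-of-ratios this difference was -0.025, for GC and length -0.027, and without mitochondrially encoded genes -0.023. A test of any difference among the 3 groups (limma's moderated F test with Benjamini-Hochberg adjustment) passed 0 of 82 members, where 3 of 13879 genes (0.0216%) passed, and 9 members (11.0%) had an unadjusted p below 0.05, against 8.72%.

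**Figure D4:**
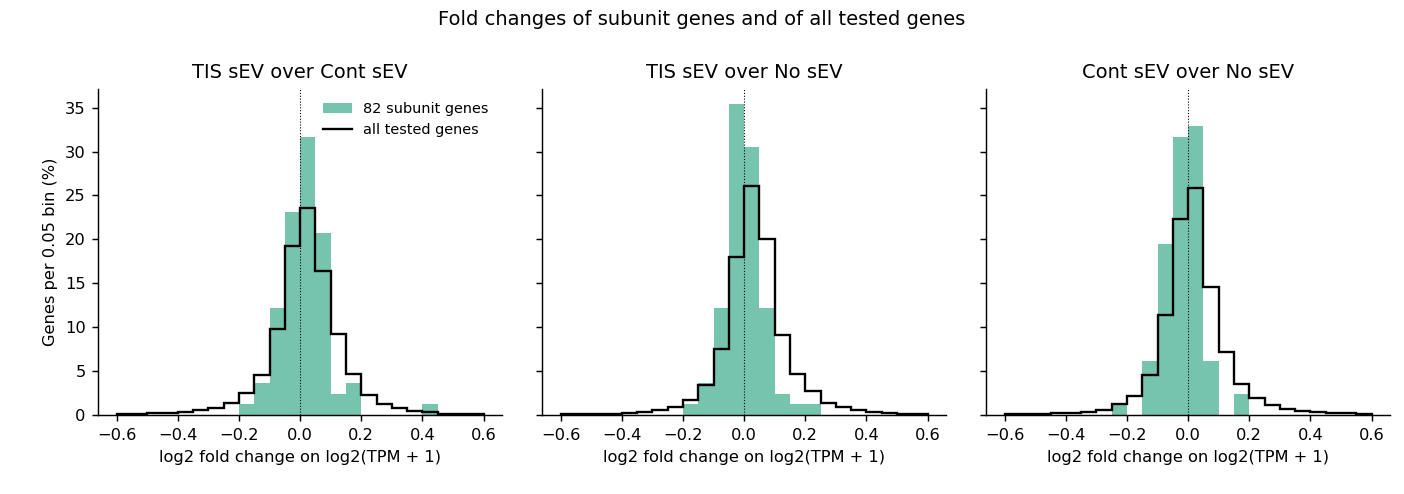
Share of genes (%) per 0.05-wide bin of log2 fold change, on the log2(TPM + 1) scale, for the 82 subunit genes (filled) and all 13879 tested genes (line), in each comparison. Both peak near 0, and in every comparison 81 of the 82 subunit genes lie within 0.2 of it.

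Summed over each complex, the nuclear transcripts differed little between groups. The 90 genes summed to 19484 ± 88.1 TPM with TIS sEV, 19430.3 ± 139.6 TPM with Cont sEV and 19672 ± 268 TPM with No sEV (SD, n = 3 each), and the highest library exceeded the lowest by a ratio of 1.03. Complex I summed to 6469 ± 20.7 TPM with TIS sEV, 6405 ± 68.4 TPM with Cont sEV and 6552 ± 75.8 TPM with No sEV. Complex IV summed to 4727 ± 83.2, 4746 ± 80.9 and 4764 ± 81.0 TPM in the same order. As deposited, all groups of libraries overlapped in these sums. After median-of-ratios rescaling the TIS sEV libraries lay below all No sEV libraries in the sum of the 90 genes (18947 to 19393 TPM with TIS sEV and 19427 to 20125 TPM with No sEV) and in complex I (6306 to 6429 TPM with TIS sEV and 6490 to 6716 TPM with No sEV). The same held for complex II and the ATP synthase, whose groups overlapped as deposited.

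The 7 core subunits of complex I were an exception, at 1009.8 to 1031 TPM with TIS sEV, 969 to 996 TPM with Cont sEV and 1004 to 1022 TPM with No sEV. Here the Cont sEV libraries lay below both other groups. After median-of-ratios rescaling the ranges were 995 to 1021 TPM with TIS sEV, 964 to 1017 TPM with Cont sEV and 1007 to 1038 TPM with No sEV, which overlap. With mitochondrially encoded genes left out, the Cont sEV libraries (1001 to 1031 TPM) again lay below both other groups. These were at 1033 to 1053 TPM with TIS sEV and 1034 to 1048 TPM with No sEV. Complex III summed to 2303 to 2327 TPM with TIS sEV and 2258 to 2301 TPM with Cont sEV, which did not overlap as deposited and did after rescaling (2272 to 2299.95 TPM with TIS sEV and 2251 to 2306 TPM with Cont sEV). These sums were set side by side as a description and were not tested.

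The mitochondrial DNA supplies the other 13 subunits, and their transcripts varied far more. They summed to 18627 ± 1946 TPM with TIS sEV, 25406 ± 3624 TPM with Cont sEV and 22209 ± 1862 TPM with No sEV (SD, n = 3 each), with a ratio of 1.68 between the highest and lowest library. Mitochondrial over nuclear subunit transcripts thus stood at 0.860, 1.07 and 0.942 in TIS sEV cells, at 1.11, 1.45 and 1.37 in Cont sEV and at 1.03, 1.11 and 1.25 in No sEV. The TIS sEV libraries lay below the Cont sEV libraries and overlapped those with No sEV. All 13 mitochondrial genes had the lower mean with TIS sEV than with Cont sEV, at a median log2 fold change of -0.45. None passed limma's test with Benjamini-Hochberg adjustment (0 of 13, with 11 at an unadjusted p below 0.05, against 10.0% of all tested genes). MT-ND3 had the smallest adjusted p among them (0.0961), at 1182 ± 87.9 TPM with TIS sEV and 1662 ± 193 TPM with Cont sEV (SD, n = 3 each). Between TIS sEV and No sEV all 13 had the lower mean with TIS sEV, at a median log2 fold change of -0.23. Of these, 5 (38.5%) had an unadjusted p below 0.05, against 7.97% of all tested genes. Between Cont sEV and No sEV all 13 had the higher mean with Cont sEV, at a median of 0.21. There 1 (7.69%) had such a p, against 6.03%.

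The balance of the genomes differed by complex. In complex I the ratio of mitochondrial to nuclear transcripts averaged 0.968 ± 0.102 in TIS sEV cells, 1.33 ± 0.177 in Cont sEV and 1.13 ± 0.0895 in No sEV (SD, n = 3 each). In complex IV, where the 3 catalytic core proteins are mitochondrial, it was 1.69 ± 0.198 in TIS sEV cells, 2.35 ± 0.323 in Cont sEV and 2.02 ± 0.211 in No sEV. Complex III, with cytochrome b as its only mitochondrial product, stood at 0.129 ± 0.0118 in TIS sEV cells, 0.199 ± 0.0336 in Cont sEV and 0.169 ± 0.0143 in No sEV. The ATP synthase stood at 0.756 ± 0.0872 in TIS sEV cells, 0.963 ± 0.134 in Cont sEV and 0.879 ± 0.0940 in No sEV. In complexes I, III and IV the TIS sEV and Cont sEV libraries did not overlap, and in the ATP synthase they did. The nuclear sums in these ratios stayed within 1.04-fold over the 9 libraries in each complex, so the spread of the ratios follows the mitochondrial sums. The labels name only a standard Illumina protocol for the libraries, and the part of RNA selection in the mitochondrial values was not tested.

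**Figure D5:**
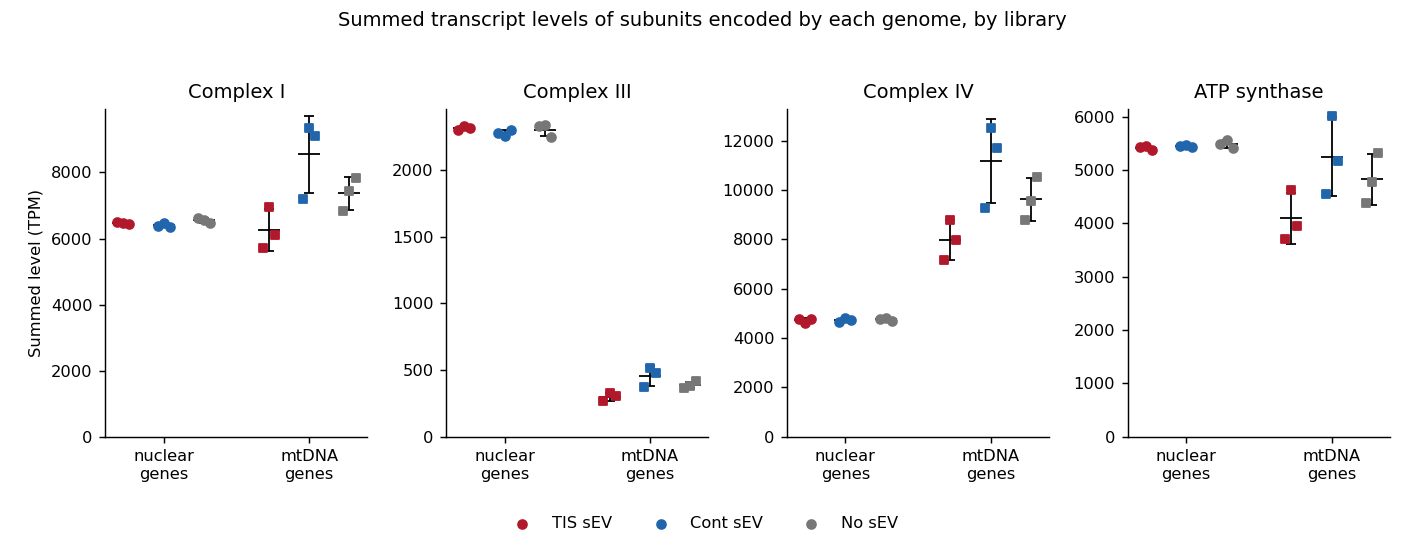
Summed level (TPM) of nuclear-encoded (circles) and mitochondrial DNA-encoded (squares) subunits of complexes I, III and IV and the ATP synthase; points are libraries and bars the mean and SD of 3 libraries, with groups in the order TIS sEV, Cont sEV, No sEV. Nuclear sums lie level across groups, while mitochondrial sums spread widely, in complex I from 5701 to 9330.

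Genes that build or regulate the chain were examined beside the subunits. No gene of any such list passed limma's test with Benjamini-Hochberg adjustment in any comparison. Between TIS sEV and Cont sEV, 14 of 16 complex I assembly factors and all 6 of complex III had the higher mean with TIS sEV, at median log2 fold changes of 0.05 each, against 0.02 for all tested genes. The split was 16 and 7 for complex IV factors, 2 and 2 for complex II factors and 3 and 3 for the ATP synthase list. Between TIS sEV and No sEV, 10 of the 16 complex I factors and 2 of the 6 complex III factors had the higher mean with TIS sEV. Between Cont sEV and No sEV, 6 of the 16 and 1 of the 6 had the higher mean with Cont sEV. All these splits, and those of the lists below, are on the values as deposited. On these values the median of all tested genes was itself above 0 between TIS sEV and Cont sEV. More tested genes thus had the higher mean with TIS sEV than with Cont sEV. After median-of-ratios rescaling that median was 0.0006, and the splits of these lists were not examined on that scale. The assembly factor of smallest p was SCO1, which delivers copper to complex IV, at 31.9 ± 1.06 TPM with TIS sEV and 27.9 ± 1.06 TPM with Cont sEV (SD, n = 3 each; log2 fold change 0.19, limma with Benjamini-Hochberg adjustment, adjusted p = 0.215). NDUFAF1, an early assembly factor of complex I, was at 32.0 ± 0.392 TPM with TIS sEV and 28.5 ± 0.988 TPM with Cont sEV (SD, n = 3 each; log2 fold change 0.16, limma with Benjamini-Hochberg adjustment, adjusted p = 0.229). With No sEV, NDUFAF1 was at 31.5 ± 0.809 TPM and SCO1 at 29.4 ± 0.657 TPM (SD, n = 3 each). The NDUFAF1 mean with No sEV thus lay nearer to that with TIS sEV than to that with Cont sEV.

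ATP5IF1, which blocks the ATP synthase from running in reverse, was at 283 ± 9.19 TPM with TIS sEV and 263 ± 13.4 TPM with Cont sEV (SD, n = 3 each; limma with Benjamini-Hochberg adjustment, adjusted p = 0.393). Among 13 regulators of mitochondrial biogenesis, 9 had the higher mean with TIS sEV and 4 with Cont sEV. Of these ESRRA, a nuclear receptor that acts on respiratory genes, had the smallest p, at 50.9 ± 2.09 TPM with TIS sEV and 47.3 ± 1.64 TPM with Cont sEV (SD, n = 3 each; limma with Benjamini-Hochberg adjustment, adjusted p = 0.468). Of 78 mitochondrial ribosomal protein genes, 54 had the higher mean with TIS sEV and 24 with Cont sEV. Their median log2 fold change was 0.03, against 0.02 for all tested genes. Of 83 cytosolic ribosomal protein genes, which are also short and abundant, 34 had the higher mean with TIS sEV and 49 with Cont sEV, with a median of -0.01. At an unadjusted p below 0.05 there were 18 of the 78 mitochondrial ribosomal protein genes, 13 higher and 5 lower with TIS sEV, and 14 of the 83 cytosolic ones, 8 higher and 6 lower. Of all tested genes 10.0% had such a p, 7.07% higher and 2.93% lower. Between TIS sEV and No sEV, 5 of the 78 mitochondrial ones (6.41%) had such a p, against 7.97% of all tested genes. Of these, 3 were higher and 2 lower with TIS sEV. Between Cont sEV and No sEV there were 6 (7.69%), all lower with Cont sEV, against 6.03% of all tested genes. In that comparison 21 of the 78 had the higher mean with Cont sEV and 57 with No sEV. Among the mitochondrial ribosomal protein genes MRPS25 had the smallest p between TIS sEV and Cont sEV. It was at 32.1 ± 2.37 TPM with TIS sEV and 26.5 ± 0.449 TPM with Cont sEV (SD, n = 3 each; limma with Benjamini-Hochberg adjustment, adjusted p = 0.174). Of the 83 cytosolic genes, 21 had the higher mean with TIS sEV and 62 with No sEV. The split was 29 with Cont sEV and 54 with No sEV. At an unadjusted p below 0.05, 3 were higher and 16 (19.3%) lower with TIS sEV than with No sEV, against 6.33% and 1.64% of all tested genes. With Cont sEV, 1 was higher and 13 (15.7%) lower than with No sEV, against 3.53% and 2.5%.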

How the data were processed

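RNA sequencing of 9 samples of recipient MDA-MB-231 cells was analysed, 3 each with TIS sEV, Cont sEV and No sEV, grouped by the labels. The authors deposited 1 table of gene-level TPM values. Per the submitters' processing notes, reads were handled with Trim Galore 0.6.6, FastQC 0.11.9 and Salmon 1.4.0, DESeq2 1.28.0 was also used, and the build was GRCh38.p13. No source used here names the annotation release. Read depth cannot be recovered from TPM, so the depth behind each value is unknown and no count model was fitted.

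Symbols were matched by Ensembl ID (99.58% of rows). Gene types, coordinates and transcripts came from GENCODE 29. Levels were analysed as log2(TPM + 1), which understates fold changes of low genes, after keeping genes that reached 1 TPM in 3 or more libraries. All 9 libraries entered 1 model in limma 3.58.1 (R 4.3.3) with a variance trend. Its moderated tests were two-sided, with Benjamini-Hochberg adjustment over every tested gene and a threshold of 0.05. The steps were tested on simulated data. Sums per library, shares of 31-base words and promoter motifs were computed in Python 3.11.15 with pandas 2.3.3, and figures were drawn with matplotlib 3.10.9. The labels leave unsaid whether replicates came from different cultures, so a p-value here reflects the spread among these samples, which may be technical.

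Named members were the 5 of smallest unadjusted p per comparison, the highest and lowest of each complex, isoform groups, the SDH genes, ATP5F1A and ATP5F1B, and members that failed the filter; 1 gene this rule names is not reported here. Of other lists, the gene of smallest p could be named. The members, lists and this rule were chosen with earlier results of these data known. The alternatives varied the pseudocount (0.1 and 5), the filter, the scaling, GC and length trends, mitochondrial genes, the variance model, the replicate block and the libraries included. Restricting the medians to members that share few 31-base words was added after seeing the data.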

Additional observations from a re-analysis of the deposited data

How the results depend on the processing

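No subunit gene passed limma's adjusted test under any alternative in any comparison; between TIS sEV and Cont sEV the smallest adjusted p ranged from 0.137 to 0.482. Counts over all genes were less stable. Between TIS sEV and Cont sEV, 13 genes passed, but 6 with GC and length trends removed, 2 without a variance trend, 3 with only the libraries compared, and 2 to 13 leaving out 1 library. The count was 2 when either Cont sEV replicate 2 or replicate 1 of TIS sEV was omitted, 10 for Cont sEV replicate 1, 13 for No sEV replicate 2 and 3 to 8 for each of the others. Between TIS sEV and No sEV, 1 gene passed, with 9 without a filter, 0 without a variance trend, 2 with only the libraries compared and 1 to 2 leaving out 1 library. Between Cont sEV and No sEV, 0 passed (837 at an unadjusted p below 0.05), with 7 without a filter, 1 at a mean of at least 5 TPM, and 0 to 1 leaving out 1 library (1 without Cont sEV replicate 2).

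The members' median log2 fold change is listed for the settings that moved it by more than the standard error of a difference, taken from the spread of the members' median level among replicate libraries. Between TIS sEV and Cont sEV it was 0.01632, with -0.004988 on median-of-ratios scaling, -0.001353 on quantile scaling, 0.004793 when genes of the mitochondrial DNA were omitted and 0.005132 once GC and length trends were taken out. Between TIS sEV and No sEV it was -0.002228, with -0.03676, -0.01408 and -0.03781 for median-of-ratios, quantile and GC and length, and -0.01504 to 0.01042 leaving out 1 library. Between Cont sEV and No sEV it was -0.01273, with -0.02589 for median-of-ratios, -0.03197 for GC and length, and -0.02453 to -0.007166 leaving out 1 library. Over the 51 members that share under 10% of their 31-base words, the medians were 0.01884, -0.003454 and -0.0143 in that order of comparisons.

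On median-of-ratios scaling, summed TPM with TIS sEV, Cont sEV and No sEV was 6381.2, 6413.8 and 6621.05 for complex I, 549.271, 555.465 and 568.313 for complex II, 2284.04, 2282.4 and 2327.62 for complex III, and 5342.98, 5452.49 and 5547.84 for the ATP synthase. In complexes I and II and the ATP synthase the TIS sEV libraries then lay below all No sEV libraries. Omitting the genes of the mitochondrial DNA rescales the rest; the sums for TIS sEV, Cont sEV and No sEV were then 6619.17, 6606.71 and 6733.12 for complex I, 569.716, 572.184 and 577.938 for complex II, and 2369.31, 2351.45 and 2366.9 for complex III. They were 4837.22, 4896.35 and 4895.61 for complex IV and 5542.45, 5616.9 and 5641.79 for the ATP synthase, where TIS sEV libraries lay below all Cont sEV libraries; in complex I they lay below all No sEV libraries.

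Samples with the same replicate number did not deviate together (r from -0.048 to 0.079 over 9 pairs, against -0.1013 to 0.1002 over 18 pairs of different number), so the numbers were not taken to pair samples. With the replicate number as a block 9, 1 and 0 genes passed in the 3 comparisons, with 0 subunit genes in each. Why the other values moved was not tested.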
